A study of Mus musculus with 2 samples.

Results

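The portal fibroblast matrix genes described here are 10 genes of the extracellular matrix, 10 of the 19465 genes measured: Col1a1, Col1a2, Col3a1, Postn, Dpt, Mgp, Dcn, Gsn, Lox and Timp1. They were chosen by name because, in these data, their unique molecular identifiers (UMIs, 1 per captured molecule) gathered in few spots and differed between spots with and without bile duct markers. The values that served for that choice, the concentration and the contrast with duct-marker spots, are therefore given below as descriptions only. All 10 symbols were found in both sections.

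RNA was measured on spots of liver sections from 2 female littermates aged 8 weeks, untreated, with 1 section for each of the 2 genotypes. One mouse (AEG-1-WT, below WT) carried wild-type AEG-1 and the other (AEG-1-C75S, below C75S) a germline knock-in, made with CRISPR/Cas9, that replaces the palmitoylated cysteine 75 of AEG-1 with serine. Sections of 5 µm were cut from fixed, paraffin-embedded tissue of the same lobe and read with 10x Visium probe pairs, so a count is that of ligated probes over a spot, a small region that holds several cells. With 1 section per genotype no test between genotypes was possible, each ratio compares these sections and not the conditions, and every interval (95%, exact) covers counting error only.

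Portal fibroblasts are the collagen-producing cells of the connective tissue around bile ducts, the portal vein and the hepatic artery. In a healthy liver they share the making of matrix with hepatic stellate cells, which lie along the sinusoids of the lobule, and with the smooth muscle cells of vessel walls. Fibrillar collagens form the fibres of this tissue, small leucine-rich proteoglycans coat them, and lysyl oxidases cross-link them.

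After spots over 50000 UMIs were left out, 2309 WT spots with 42246988 UMIs and 2163 C75S spots with 41674347 UMIs remained, with a median of 16830 and 18808 UMIs per spot. The sections shared 1896 spot barcodes, which name positions on the array. Levels are given as CPM, the UMIs of a gene per 1e+06 UMIs of the same spots. Duct-marker spots, those with at least 6 UMIs of Spp1, Epcam, Krt7 and Krt19 together, were 182 spots or 7.88% (6.82 to 9.06) in WT and 114 spots or 5.27% (4.37 to 6.30) in C75S. Fewer cells of a type and less RNA per cell cannot be told apart in such counts.

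The promoters of Col1a2, Col3a1, Dpt and Postn (chr6:4505618-4541543, chr1:45311538-45349706, chr1:164796663-164824274 and chr3:54359267-54391041) are shown because the first 3 genes shared their spots in the WT section while Postn did not. Each is the 250 bases before an annotated start, on the plus strand of GRCm38.p6, from RefSeq; 6 of the 10 genes had an entry, and Col1a1, Mgp, Dcn and Lox had none. Capitals mark matches, on either strand, to TATAAA, the letters of a core promoter element (TATA box), to CCAAT, the box that the factor NF-Y binds, to GGGCGG, a GC box that Sp1 binds, or to CAGACA, an element that SMAD proteins bind.
Col1a2, chr6:4505368-4505617: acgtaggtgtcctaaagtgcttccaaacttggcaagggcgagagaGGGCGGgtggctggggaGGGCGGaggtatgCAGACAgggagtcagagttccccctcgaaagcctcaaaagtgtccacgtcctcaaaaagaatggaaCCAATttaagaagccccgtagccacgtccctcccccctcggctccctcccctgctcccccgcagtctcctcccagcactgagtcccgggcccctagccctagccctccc
Col3a1, chr1:45311288-45311537: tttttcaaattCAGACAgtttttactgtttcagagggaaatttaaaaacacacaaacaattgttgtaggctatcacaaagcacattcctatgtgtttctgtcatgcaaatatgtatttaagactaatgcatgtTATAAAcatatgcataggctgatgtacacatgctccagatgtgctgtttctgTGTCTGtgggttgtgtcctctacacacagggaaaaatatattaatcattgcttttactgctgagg
Dpt, chr1:164796413-164796662: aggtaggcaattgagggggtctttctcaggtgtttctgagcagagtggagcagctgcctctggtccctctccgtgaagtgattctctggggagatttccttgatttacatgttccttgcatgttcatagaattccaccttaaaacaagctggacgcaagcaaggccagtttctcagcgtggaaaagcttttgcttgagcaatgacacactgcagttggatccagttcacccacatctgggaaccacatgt
Postn, chr3:54360857-54361106: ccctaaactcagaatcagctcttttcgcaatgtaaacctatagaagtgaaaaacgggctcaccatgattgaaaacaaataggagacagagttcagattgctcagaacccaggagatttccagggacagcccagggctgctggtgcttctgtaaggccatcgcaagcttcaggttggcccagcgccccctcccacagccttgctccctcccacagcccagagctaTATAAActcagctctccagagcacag

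Of 32851 promoter windows of this length, 12.4% held TATAAA, 33.8% CCAAT, 32.7% GGGCGG and 17.1% CAGACA. The window before the first Postn start (chr3:54359017-54359266), not shown, held none of the 4 motifs. The Col1a2 window held 2 GC boxes, 1 CCAAT box and 1 SMAD element, and the Col3a1 window 1 TATAAA match and 2 SMAD elements. The Postn window, the second of its 2 starts, held 1 TATAAA match. The TATAAA match lay 117 to 112 bases before the Col3a1 start and 26 to 21 bases before the Postn start. None of the 4 motifs was in the Dpt window. No motif was common to Col1a2, Col3a1 and Dpt, which are only 3 of the genes that shared their spots, and a match describes letters only. The windows of Gsn, which shared them too, are not shown, and each held at least 1 GC box. Of the genes without an entry, Col1a1 lies at chr11:94936224-94953042, Mgp at chr6:136872435-136875823 and Dcn at chr10:97479500-97518163.

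In the WT section the fibrillar collagens were packed into very few spots. Col1a1, the alpha 1 chain of type I collagen, gave 1061 UMIs in WT and 351 in C75S, and 50% of them lay in 36 spots (1.56% of all) and 88 spots (4.07%). Col1a2, the other chain of the same trimer, gave 1502 and 868 UMIs, with 50% of them in 86 and 221 spots. Col3a1, the chain of type III collagen, gave 3050 and 1882 UMIs, with 50% in 156 and 277 spots. All 3 collagens thus had both more UMIs and fewer spots holding 50% of them in the WT section. A single WT spot reached 59 UMIs of Col1a1, 72 of Col1a2 and 67 of Col3a1, where the highest C75S spot had 8, 9 and 17.

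Dpt, Mgp and Gsn followed the collagens. Dpt encodes dermatopontin, a small matrix protein that binds decorin, and gave 908 UMIs in WT and 320 in C75S, with 50% in 62 and 81 spots. Mgp, the matrix Gla protein that inhibits calcification, gave 900 and 312 UMIs, with 50% in 39 and 70 spots. Gsn, which encodes the actin-severing protein gelsolin, gave 965 and 402 UMIs, with 50% in 72 and 104 spots.

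Dcn was spread over the tissue, and Postn, with far fewer UMIs, was not packed as the collagens were in WT. Dcn, which encodes the collagen-coating proteoglycan decorin, had the most UMIs of the 10 genes, 4516 in WT and 5681 in C75S, and 50% of them needed 487 and 451 spots, 21.1% and 20.9% of all. Postn, which encodes periostin, gave 676 and 659 UMIs, with 50% in 222 and 203 spots (9.61% and 9.39%). Over the 8094 genes with at least 300 UMIs in each section, the median was 13.4% in WT and 12.9% in C75S. In C75S Col1a2 (10.2%) and Col3a1 (12.8%) needed more spots than Postn. The number of spots needed also depends on a gene's UMIs, so it does not rank genes of unlike counts by how evenly they were spread. Lox, a collagen cross-linking oxidase, gave 5 and 3 UMIs, and Timp1, an inhibitor of matrix metalloproteases, gave 6 and 3. Each UMI lay in a spot of its own, so neither gene was compared further between the sections on its own.

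The variance of a gene's UMIs over spots divided by their mean places each gene among the 8094 genes with at least 300 UMIs in each section, whose median was 1.08 in WT and 1.12 in C75S. Col1a2 stood 22nd from the top in WT with a ratio of 14.03, Col1a1 23rd with 13.9, Col3a1 32nd with 11.4 and Mgp 39th with 9.24. In C75S the same ratio was 1.29 for Col1a2, 1.74 for Col1a1, 1.99 for Col3a1 and 2.16 for Mgp, and their ranks ran from 426 for Mgp to 1778 for Col1a2. Dcn kept a similar place in both sections, rank 462 with 1.74 and rank 457 with 2.11. Postn had ratios nearer the medians, 1.25 (rank 1412) in WT and 1.15 (rank 3425) in C75S. By this ratio the 3 collagens and Mgp were thus among the 39 most uneven genes of WT and not of C75S. The ratio also depends on the number of UMIs, which was higher in WT for these genes. The part of that in the difference was not tested.

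**Figure D1:**
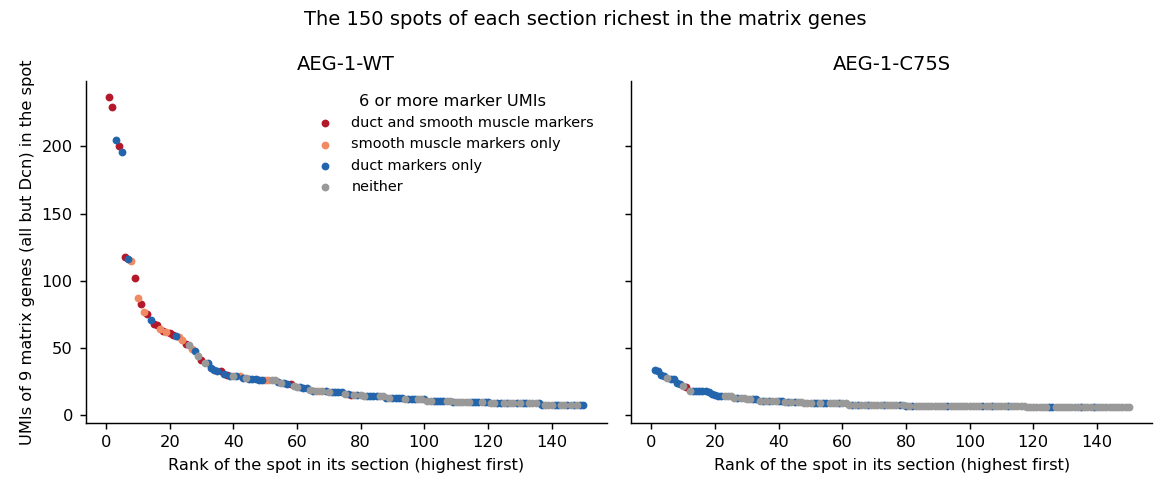
The 150 spots richest in the 9 genes other than Dcn, in order, for each section; the vertical axis is the UMIs of the 9 genes in a spot and colours give the markers present (at least 6 UMIs of the duct or the smooth muscle markers). The WT section has 26 spots with at least 50 UMIs and the C75S section has 0.

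The richest spots differed in the markers they held. In WT the first 5 spots held 251, 242, 214, 209 and 203 UMIs of the 10 genes; the C75S section's first 5 held 42, 38, 36, 31 and 31. The first WT spot combined 43 UMIs of Col1a1, 47 of Col1a2, 67 of Col3a1, 25 of Dpt, 30 of Mgp, 24 of Gsn and 14 of Dcn among its 26551 UMIs, with 7 UMIs of duct markers and 55 of the smooth muscle markers Acta2, Tagln and Myh11. The second had only 9767 UMIs in all, but held 59 of Col1a1 and 72 of Col1a2, with 13 UMIs of duct and 13 of smooth muscle markers, and its depth lay below the median spot of the section. The third and the fifth held 28 and 95 duct-marker UMIs with 1 and 3 of smooth muscle and 4 and 3 of mesothelial genes, and 47 UMIs of Col1a1 each. The first C75S spot had no duct or smooth muscle UMI, and the second, with 110 duct-marker UMIs, held 17 UMIs of Col3a1 and 5 of Mgp.

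Counting spots gives the same picture. At least 50 UMIs of the 9 genes other than Dcn were seen in 26 WT spots, 1.13% of the section. They held 29.0% of the UMIs of those genes. Of the 26, 18 were duct-marker spots, beside 182 of all 2309 WT spots. More of the 26 had at least 6 smooth muscle UMIs, most of these together with duct markers, and few had duct markers only. Spots with smooth muscle markers were rarer in the section, 18 with both kinds of markers and 12 with smooth muscle markers only. No C75S spot reached 50, and 0 of 2163 spots allows a share of up to 0.139%. At least 20 UMIs were seen in 63 WT and 11 C75S spots, and at least 10 in 120 and 47.

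**Figure D2:**
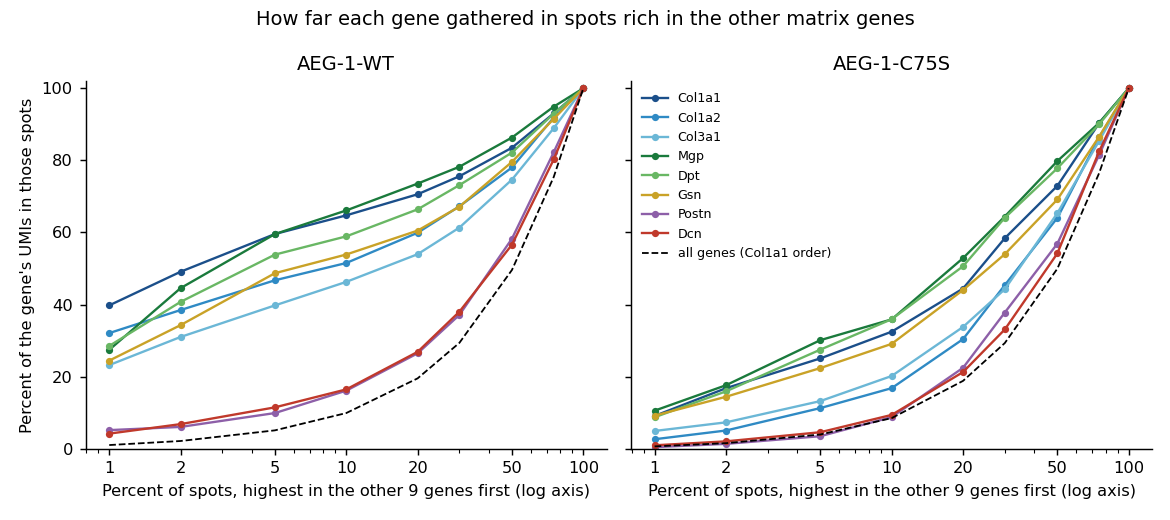
Percent of each gene's UMIs (vertical) found in the given percent of spots (horizontal, log axis), with spots ordered by the CPM of the other 9 genes; the dashed line is the percent of all UMIs in those spots. For 6 of the 8 genes the curves lie far above the dashed line in WT, and Dcn and Postn lie near it in C75S.

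Whether the genes shared their spots was described by ordering spots on the other 9 genes. The 5% of WT spots highest in the others held 59.6% (56.5 to 62.5) of the Col1a1 UMIs, 59.6% (56.3 to 62.8) of those of Mgp, 53.9% (50.5 to 57.1) of Dpt, 48.7% (45.5 to 51.9) of Gsn, 46.7% (44.2 to 49.3) of Col1a2 and 39.8% (38.0 to 41.5) of Col3a1. In C75S the corresponding shares were 25.1% for Col1a1, 30.1% for Mgp, 27.5% for Dpt, 22.4% for Gsn, 11.3% for Col1a2 and 13.2% for Col3a1. Dcn had 11.5% in WT and 4.59% in C75S, and Postn 9.91% and 3.49%. The median over the 10 genes was 47.7% in WT and 12.3% in C75S, with Lox and Timp1 among them. Lox had 60% of 5 UMIs and Timp1 16.7% of 6 in WT, and each had 0% of 3 in C75S. These values of 0% lowered the C75S median and widened the gap. Without spots with at least 6 smooth muscle UMIs the median over the 10 genes was 32.2% and 12.3%. With spots ordered by UMIs in place of CPM it was 49.2% and 21.3%. Dcn gave 4516 of the 13589 UMIs of the 10 genes in WT and 5681 of 10481 in C75S. It thus weighed more on the order of spots in C75S. For the 6 genes, the 5% of spots held 5.05% to 5.26% of all UMIs in WT and 3.89% to 4.07% in C75S.

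Pearson correlations over spots of log2(1 + UMIs per 10000) describe the pairs. Among Col1a1, Col1a2, Col3a1, Dpt, Mgp and Gsn the 15 pairs ran from 0.44 to 0.63 over the 2309 WT spots, highest for Dpt with Mgp, and from 0.10 to 0.29 over the 2163 C75S spots, again highest for Dpt with Mgp. All points share 1 library per section and its depth. The correlations in C75S are weak, and the part of fewer UMIs in that was not tested. Dcn followed other partners: its correlation with the summed markers of stellate cells (Lrat, Reln, Ecm1 and 6 more) was 0.36 in WT and 0.35 in C75S, while Col1a1 had 0.08 and 0.01 with the same list. With the smooth muscle list, Col1a1 had 0.44 in WT and 0.06 in C75S, and Mgp 0.45 and 0.10.

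Beyond the 10 genes, the pattern most like their sum was that of Spp1 (lower of the 2 sections' correlations 0.29), a duct marker the choice had used, then Bgn (0.28), which encodes the proteoglycan biglycan, Sod3 (0.27), an extracellular superoxide dismutase, Cd74 (0.26), the invariant chain of MHC class II, and Tmsb4x (0.24). Col14a1, Igfbp7, H2-Ab1, H2-Aa and Pam completed the first 10 of 9026 genes, at 0.23 to 0.21. Dcn weighs heavily in that sum, and without it Col6a3 (0.24), Gas6 (0.23) and Igfbp3 (0.23) came among the first 10, which are named after their values were seen.

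**Figure D3:**
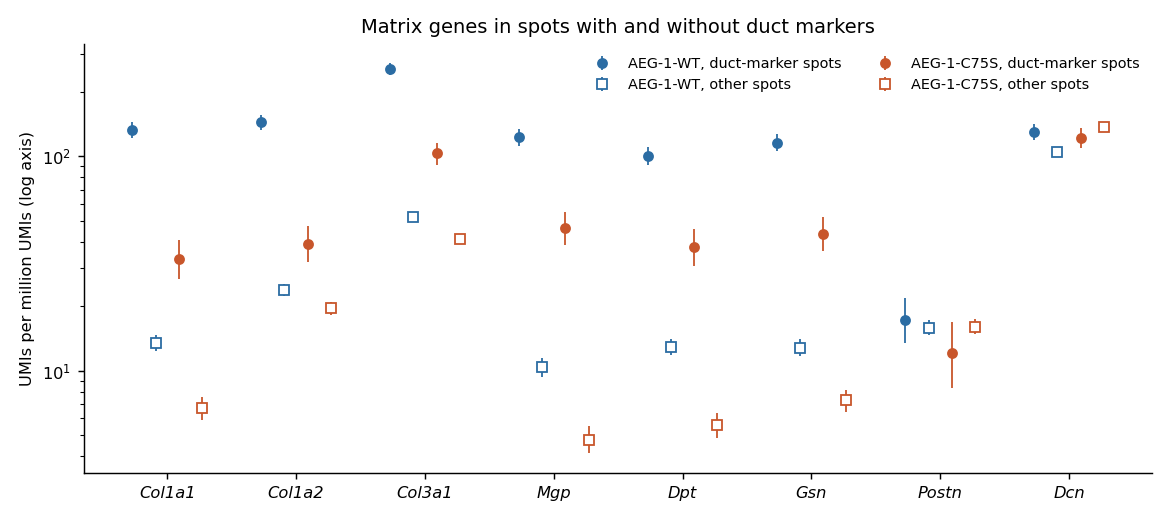
CPM (log axis) of 8 genes in duct-marker spots (filled circles) and other spots (open squares) of each section, with exact 95% counting intervals. For 6 genes the levels are several times higher in duct-marker spots of WT, and the blue and orange filled circles lie apart for the same 6 genes.

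The second contrast was between duct-marker spots and the other spots of a section. Mgp had 123 CPM (112 to 134) in duct-marker spots and 10.4 (9.36 to 11.4) in the other spots of WT, 11.8-fold more; in C75S it had 46.1 (38.4 to 54.9) and 4.78 (4.11 to 5.51), 9.66-fold more. Col1a1 had 133 and 13.5 in WT, 9.81-fold, and 33.3 and 6.68 in C75S, 4.99-fold. Gsn was 9.04-fold and 5.99-fold higher in duct-marker spots, and Dpt 7.79-fold and 6.77-fold. The collagens Col1a2 and Col3a1 were 6.04-fold and 4.87-fold higher in WT but 2.004-fold and 2.51-fold higher in C75S. For the 6 genes the intervals lay above 0 in both sections.

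Dcn and Postn showed no contrast of that size. Dcn had 130 CPM in duct-marker and 104 in other spots of WT, a log2 ratio of 0.32 (0.18 to 0.45), and 122 and 137 in C75S, a log2 ratio of -0.17 (-0.34 to -0.01). Postn had 17.2 and 15.9 in WT and 12.1 and 16.1 in C75S, and both intervals of its log2 ratio spanned 0. Lox had 4 of its 5 WT UMIs in duct-marker spots, and none of its 3 in C75S. Dcn and Postn were thus not gathered at duct markers as the name of the gene set would have it, and Lox and Timp1 were hardly detected. For the other 6 the contrast chose the genes and does not bear on the name. The choice did not use the portal fibroblast markers (Thy1, Entpd2 and 5 more). With their sum, the 6 genes had correlations over spots of 0.40 to 0.46 in WT and, weak values, 0.05 to 0.12 in C75S. With the smooth muscle list the correlation was of like size for Col1a1 and Mgp in WT (0.44 and 0.45). The leukocyte list gave 0.32 to 0.36 in WT and 0.12 to 0.21 in C75S, there above the portal fibroblast list. A list of 8 further cholangiocyte genes gave 0.23 to 0.35 and 0.10 to 0.21, also above it in C75S. Of the portal fibroblast markers compared, 5 of 5 were higher in duct-marker than in other spots of WT (median log2 ratio 2.01). In C75S 1 of 4 was (0.48). Over all genes 20.6% and 8.85% were higher. Other lists did likewise: 7 of 7 smooth muscle genes in WT (2.16) and 2 of 4 in C75S (0.77), and 5 of 5 further cholangiocyte genes in each (2.62 and 2.02).

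Among 8 genes compared, 7 were higher in duct-marker spots of WT, beside 20.6% of the 11283 genes compared there, and 6 were higher in C75S, beside 8.85% of 11168; this contrast chose the genes. None was lower in WT, beside 7.69%, and Dcn alone in C75S, beside 6.83%. Their median log2 ratio was 2.78 and 1.82, beside 0.10 and 0.01 over all genes. Around the threshold, WT spots with 5 duct-marker UMIs (31 spots) had 352 CPM of the 10 genes and those with 6 (26 spots) had 265, while the values in C75S were 348 (26 spots) and 228 (21 spots). From spots with no duct-marker UMI, at 218 in WT and 219 in C75S, the level was 254 and 241 with 1 to 2 UMIs and 323 and 292 with 3 to 5. With 6 to 9, 10 to 19 and at least 20 duct-marker UMIs it was 509, 1144 and 1509 in WT, against 282, 472 and 683 in C75S. The sum thus began alike in the 2 sections and parted with the duct-marker count, but its single genes did not begin alike. In spots with no duct-marker UMI, Dcn was higher in C75S, with a log2 ratio of C75S over WT of 0.37. Col1a1, Mgp, Dpt, Gsn, Col3a1 and Col1a2 were already lower there, with ratios from -0.99 for Col1a1 to -0.26 for Col1a2.

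The chains of the fibrillar collagens were not mixed alike in both kinds of spots. Of the UMIs of Col1a1, Col1a2 and Col3a1 together, Col1a1 took 24.9% (23.1 to 26.8) in duct-marker and 15.05% (13.9 to 16.3) in other spots of WT, and 18.96% (15.5 to 22.8) and 9.92% (8.80 to 11.1) in C75S. Col3a1 took 48.0% and 58.4% in WT, and 58.8% and 61.0% in C75S, where its intervals overlapped. Col1a1 was the chain whose share was larger near ducts in both sections, also without spots with smooth muscle markers (23.5% and 14.1% in WT, 18.98% and 9.92% in C75S). The shares depend on how well each probe captures its gene, so they compare spots and not the amounts of the chains.

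Levels in WT were highest in spots with smooth muscle markers, although the third and the fifth of the richest spots had few of them. At least 6 UMIs of Acta2, Tagln and Myh11 were found in 30 WT spots, 18 of them duct-marker spots and 12 not, and in 1 C75S spot. Col1a1 reached 634 CPM (560 to 716) in the 18 spots with both kinds of markers, 367 (291 to 457) in the 12 spots with smooth muscle markers only, 76.4 (67.7 to 85.8) in the 164 spots with duct markers only and 11.5 (10.4 to 12.6) in the 2115 with neither. Mgp went from 533 and 579 in the spots with smooth muscle markers to 76.6 with duct markers only and 7.10 with neither. Even Dcn, spread as it was, had 333 and 322 in the spots with smooth muscle markers and 107 and 103 in the rest. In C75S the 113 spots with duct markers only had 33.2 CPM of Col1a1 and 47.0 of Mgp, and the 2049 with neither had 6.68 and 4.78.

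**Figure D4:**
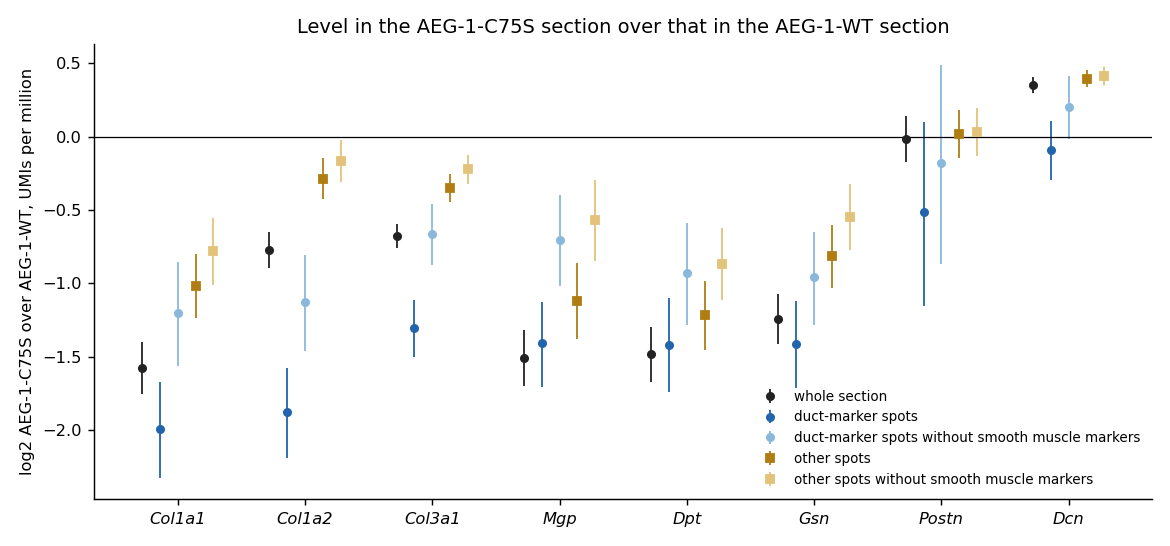
Log2 ratio of the level in the C75S section over that in the WT section for 8 genes, over the whole section, in duct-marker and in other spots, and in the latter pair without spots with at least 6 smooth muscle UMIs; bars are exact 95% counting intervals and 0 is an equal level. The 6 genes to the left lie below 0 in each set of spots, Postn spans 0, and Dcn lies above 0 over the whole section and in other spots.

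Between the sections, 6 of the 8 genes compared were lower in C75S, beside 29.7% of 11998 genes, and 1 was higher, beside 16.3%. The concentration that served to choose the genes was stronger in WT for these 6. This count, and those in sets of spots below, are therefore not independent of the choice and are descriptions only. Col1a1 had the lowest ratio of the 8, with 25.1 CPM (23.6 to 26.7) in WT and 8.42 (7.56 to 9.35) in C75S, a log2 ratio of -1.58 (-1.75 to -1.40). Mgp, with 21.3 and 7.49 CPM, had -1.51 (-1.70 to -1.32), Dpt, with 21.5 and 7.68, had -1.48 (-1.67 to -1.30), and Gsn, with 22.8 and 9.65, had -1.24 (-1.42 to -1.07). Col1a2 was at 35.6 and 20.8 (-0.77), Col3a1 at 72.2 and 45.2 (-0.68). Postn was at 16.001 and 15.8 (-0.02, -0.17 to 0.14). Dcn was the gene that was higher in C75S, with 107 and 136 CPM (0.35, 0.29 to 0.41).

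All 6 lower genes were below by at least 1.5-fold, beside 5.2% of all genes. That held for 4 of them without the 5 richest spots of each section, where Col1a2 had -0.48 and Col3a1 -0.56, and for the same 4 without the spots with smooth muscle markers, where these had -0.40 and -0.37. The median over the 8 genes was -1.01, beside -0.05 over all genes. Summed, the 10 genes had 322 and 251 CPM, a log2 ratio of -0.35 (-0.39 to -0.32), which moved to -0.90 (-0.95 to -0.85) without Dcn. The 4 duct markers that define the spots were also lower in C75S (119 and 87.7 CPM, -0.45), and so was Acta2, the smooth muscle actin, with 396 and 37 UMIs (-3.40). Leaving out the spots with smooth muscle markers took the sum to -0.09 (-0.13 to -0.05), with all 6 genes still lower, from -1.04 for Col1a1 to -0.37 for Col3a1, and Dcn at 0.40.

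Within duct-marker spots the 6 genes were again lower, beside 16.9% of 8712 genes, all by at least 1.5-fold, beside 10.1%, and none was higher, beside 5.66%. Col1a1 had 133 CPM in WT and 33.3 in C75S (-1.99, -2.33 to -1.67), Col1a2 had 144 and 39.2 (-1.88, -2.19 to -1.58), and Col3a1 had 255 and 103 (-1.31, -1.501 to -1.12). Dpt, Mgp and Gsn had ratios of -1.42, -1.41 and -1.41, Dcn -0.09 (-0.30 to 0.11) and Postn -0.51 (-1.15 to 0.10). The sum of the 4 duct markers, which also defined these spots, differed less, with 758 and 626 CPM (-0.28). One by one all 4 were lower, from -0.23 for Spp1 to -1.63 for Krt19 (median -0.80). The median depth of duct-marker spots was 19606 UMIs in WT and 25169.5 in C75S. Without the spots that had smooth muscle markers, 164 and 113 spots remained, and the ratio was -1.20 (-1.56 to -0.85) for Col1a1, -1.13 for Col1a2, -0.67 for Col3a1, -0.93 for Dpt, -0.71 for Mgp and -0.96 for Gsn. The sum moved from -1.22 to -0.63 (-0.73 to -0.53) on leaving out those spots. Without the 5 richest spots of each section Col1a2 moved to -1.0004 (-1.34 to -0.67), Col3a1 to -0.99 and Col1a1 to -1.51, while Mgp had -1.38.

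Spots with at least 20 duct-marker UMIs, 51 in WT and 27 in C75S, were compared as well. There the sum of the 4 duct markers stood at 1495 and 1291 CPM (-0.21, -0.33 to -0.10), still lower in C75S. The spots were chosen by a floor on this same sum, so its nearness does not show that duct content was matched. Over the whole section Spp1 gave most of that sum, 4558 of 5045 UMIs in WT and 3352 of 3655 in C75S. The single duct markers were not compared in these spots. Col1a2 was at 237 and 54.2 (-2.13, -2.66 to -1.64), Col1a1 at 230 and 71.3 (-1.69, -2.16 to -1.25), and Mgp at 163 and 105 (-0.62, -1.03 to -0.23). Col3a1, Dpt and Gsn had log2 ratios of -1.19, -1.11 and -0.99 there. Dcn was lower there too, at 150 and 114 CPM (-0.39, -0.79 to -0.004). Its interval spanned 0 without the 5 richest spots of each section (-0.27, -0.71 to 0.16). Postn had -0.74 (-2.02 to 0.41). Much of the type I collagen lay in few spots: without the 5 spots of each section richest in the 10 genes, 48 and 23 spots remained, with Col1a1 at 122 and 51.8 CPM (-1.24, -1.86 to -0.66), Col1a2 at 100.1 and 53.5 (-0.90, -1.53 to -0.32) and Mgp at 125 and 86.3 (-0.53, -1.03 to -0.06). The intervals of the 3 genes then overlapped.

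In the other spots Col1a2 and Col3a1 differed by less than 1.5-fold between the sections and Dpt, Mgp, Col1a1 and Gsn by more. The 6 genes were lower there too, beside 26.8% of 11807 genes, and 4 of them by at least 1.5-fold, beside 3.96%. The log2 ratios were -1.21 (-1.45 to -0.98) for Dpt, -1.12 (-1.38 to -0.86) for Mgp, -1.02 (-1.24 to -0.80) for Col1a1, -0.82 (-1.03 to -0.60) for Gsn, -0.35 (-0.45 to -0.26) for Col3a1 and -0.29 (-0.43 to -0.15) for Col1a2. Dcn was higher, at 104 and 137 CPM (0.40, 0.34 to 0.46), beside 17.1% of genes, so that the sum of the 10 genes, 246 and 238, was almost the same (-0.05, -0.09 to -0.005). Without the 12 WT spots with smooth muscle markers that sum turned to 0.06 (0.02 to 0.11) and Dpt moved to -0.87, Mgp to -0.57 and Gsn to -0.55. In the 1062 and 969 spots with no duct-marker UMI at all, the sum was 218 and 219 CPM, made up of less Col1a1 (11.002 and 5.55) and more Dcn (101 and 131) in C75S.

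**Figure D5:**
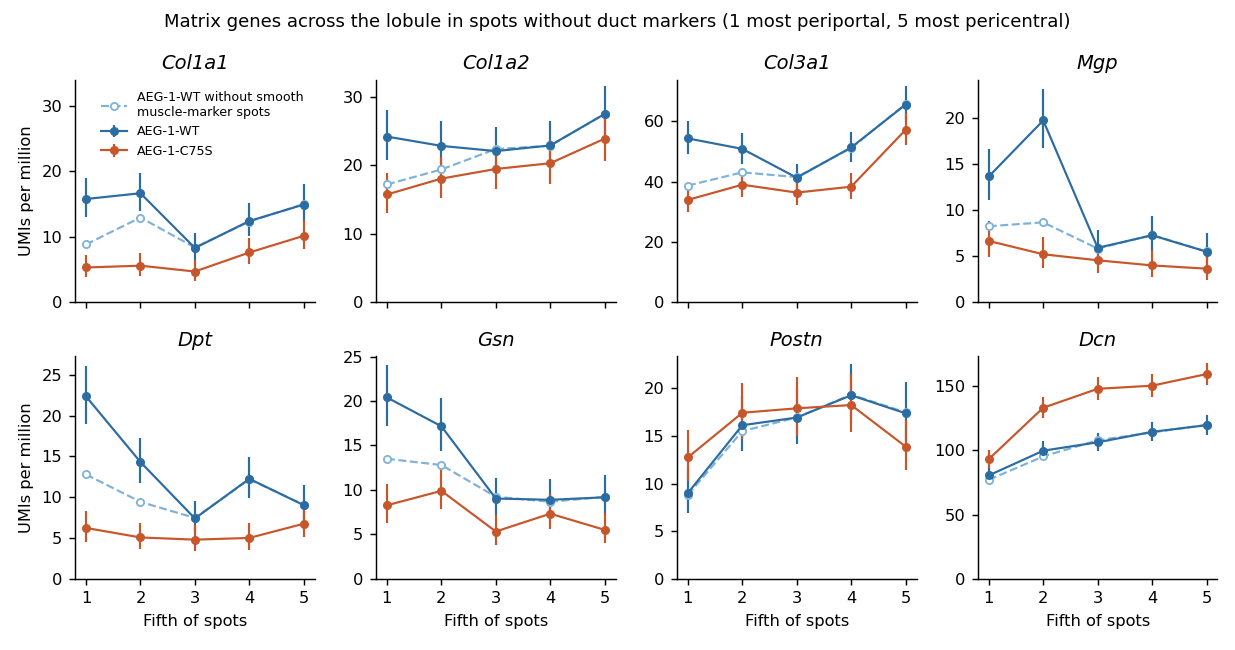
CPM of 8 genes in 5 equal groups of the spots without duct markers, ordered from the most periportal (1) to the most pericentral (5) by hepatocyte markers; lines are the sections, bars exact 95% counting intervals, and the dashed line the WT section without spots with at least 6 smooth muscle UMIs. Dcn climbs from 80.5 to 120 in WT and from 93.2 to 159 in C75S, and the dashed collagen lines start lower than they end, as the C75S lines do.

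The lobule away from ducts was divided into 5 equal groups of spots by the ratio of periportal (Cyp2f2, Hal, Sds and 4 more) to pericentral (Cyp2e1, Cyp1a2, Oat) hepatocyte markers. Dcn had its lowest level in the most periportal group and its highest in the most pericentral group of both sections, with a log2 ratio of the first to the last group of -0.57 (-0.73 to -0.42) in WT and -0.77 (-0.91 to -0.64) in C75S. Col3a1 was also highest in the pericentral group, at 65.6 and 57.2 CPM, against 54.3 and 33.9 in the periportal group. Dpt, Mgp and Gsn were higher in the periportal than in the pericentral group of WT, with ratios of 1.31, 1.32 and 1.15, and in C75S Mgp had 0.87 (0.18 to 1.59), Gsn 0.59 (0.005 to 1.18) and Dpt -0.11 (-0.71 to 0.48).

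The 12 WT spots with smooth muscle markers changed several of these slopes. Without them Col1a1 had 8.81 CPM in the periportal and 14.995 in the pericentral group of WT, a log2 ratio of -0.77 (-1.24 to -0.30) where it had been 0.08 (-0.31 to 0.47). Col1a2 moved from -0.18 (-0.49 to 0.12) to -0.68 (-1.02 to -0.34) and Col3a1 from -0.27 to -0.77 (-0.99 to -0.55). The C75S section, in which those spots were lacking outside duct-marker spots, gave -0.94 for Col1a1, -0.60 for Col1a2 and -0.75 for Col3a1, so the 3 collagens had pericentral slopes of like size in both sections once those spots were left out. Dpt, Mgp and Gsn moved to 0.49 (0.02 to 0.98), 0.58 (-0.02 to 1.202) and 0.55 (0.08 to 1.02). Postn was lower in the periportal group of WT (9.01 against 17.4, -0.95), and its ratio in C75S was -0.12 (-0.54 to 0.29).

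Other matrix genes were described by list, with the members of each list that had the most UMIs, in WT first. Of the other collagens, 4 of 9 compared were lower in C75S over the whole section and 1 was higher, with a median log2 ratio of -0.24. Over all genes the median was -0.05, with 29.7% lower and 16.3% higher, and several of the lists lie near these shares. In duct-marker spots 6 of 7 other collagens were lower (median -0.66), beside 16.9% of all genes and a median of -0.12. Col14a1, a fibril-associated collagen, gave 3007 and 3702 UMIs (0.32), and Col6a1 and Col6a3, chains of the beaded filaments of type VI collagen, gave 453 and 329 (-0.44) and 486 and 284 (-0.76). Of the small leucine-rich proteoglycans, the family of Dcn, 3 of 6 were lower and 2 higher (median -0.50), and in duct-marker spots 5 of 6 were lower and none higher (median -0.70). Bgn gave 4193 and 4830 UMIs (0.22), Prelp 2337 and 2182 (-0.08, -0.16 to 0.01) and Lum, which encodes lumican, 741 and 848 (0.21). Fmod, which encodes fibromodulin and is named after its values were seen, had the lowest ratio of that list, with 271 and 65 UMIs (-2.04). Over the whole section Dcn, Bgn and Lum thus stood above 0, and Fmod was 1 of the 3 genes of the list that were lower. In duct-marker spots Bgn had -0.16 (-0.33 to 0.01) and Lum -0.58 (-0.9964 to -0.18).

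Elastic fibre genes gave 6 of 11 lower and 2 higher (median -0.22), and in duct-marker spots 7 of 10 lower and none higher (median -0.71), with Ltbp4, which encodes a TGF-beta binding protein of microfibrils, at 2457 and 2087 UMIs (-0.22) and Emilin1 at 1091 and 1240 (0.20). The lowest ratio of that list, also named after its value was seen, was that of the fibulin gene Fbln1, at 192 and 51 UMIs (-1.89). Each such count over the whole section stands beside 29.7% lower and 16.3% higher over all genes. Basement membrane genes gave 3 of 12 lower and 1 higher (median 0.00). Among them Col18a1 had 8202 and 8306 UMIs and Col4a2, a chain of type IV collagen, 1210 and 1422 (0.25). For collagen processing 3 of 15 were lower and 5 higher (median -0.01), with P4hb, a subunit of prolyl 4-hydroxylase, at 43418 and 45935 UMIs (0.10) and the procollagen protease gene Bmp1 at 3332 and 3536 (0.11). For proteases and their inhibitors 4 of 8 were lower and 1 higher (median -0.35), with Mmp19 at 3409 and 2432 UMIs (-0.47) and Mmp14 at 1683 and 1921 (0.21). Genes of TGF-beta signalling gave 5 of 14 lower and 3 higher (median -0.03), with the ligand gene Tgfb1 at 1571 and 1855 UMIs (0.26) and the receptor gene Tgfbr2 at 1329 and 1350. In duct-marker spots the basement membrane list had 3 of 12 lower and none higher (median -0.44), and the processing list 3 of 12 and none (-0.15). The proteases and inhibitors had 5 of 7 lower and 1 higher (-0.75), and TGF-beta signalling 3 of 12 and none (-0.47). Over all genes compared in those spots, 16.9% were lower and 5.66% higher.

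Markers of the cells that a spot can hold were measured beside these results, first over the whole section. Over all genes compared there, 29.7% were lower and 16.3% higher in C75S. All 7 smooth muscle genes compared were lower in C75S (median -1.27), with Mylk at 1562 and 1367 UMIs (-0.17), Tpm2 at 1087 and 599 (-0.84) and Tagln at 707 and 290 (-1.27). All 4 duct markers were lower (median -0.57), and 4 of 5 further cholangiocyte genes (median -0.40). Of the portal fibroblast markers, 3 of 5 compared were lower and none higher (median -0.26): Pdgfra gave 332 and 299 UMIs (-0.13, -0.36 to 0.10) and Thy1 293 and 241 (-0.26, -0.51 to -0.01), while Clec3b, named after its values were seen, gave 160 and 21 (-2.91). Most of the stellate list went the other way, with 6 of 9 higher and 1 lower (median 0.17), Ecm1 being at 11796 and 15600 UMIs (0.42). Lrat, named after its values were seen, had the lowest ratio of that list (-0.48). Of vascular endothelial genes 2 of 7 were lower (median -0.11), near the share over all genes. Of sinusoidal genes 3 of 5 were higher (0.06), and of leukocyte genes 3 of 5 were higher and 1 lower (0.24). Flt4 (0.15) and Mmrn1 (-2.40) of the lymphatic list pointed in opposite directions, and both Schwann cell genes compared had intervals that spanned 0 (median -0.17). Of 7 mesothelial genes only Gpm6a was compared (-0.74), with Wt1 at 0 UMIs in both sections. Periportal hepatocyte genes had 5 of 7 lower and 2 higher (median -0.18), and all 3 pericentral ones were lower (-0.15). In duct-marker spots, where the 6 genes gather, all 6 smooth muscle genes compared (median -1.504), 3 of 4 portal fibroblast markers (-1.54), 4 of 5 further cholangiocyte genes (-0.86) and 2 of 3 leukocyte genes (-0.31) were lower, none of them higher. Over all genes compared in duct-marker spots, 16.9% were lower and 5.66% higher. Cd74 there had 752 CPM in WT and 577 in C75S (-0.38). Of stellate genes 3 of 8 were higher and 1 lower (median 0.06), with Lrat lowest (-0.76). Of vascular endothelial genes 2 of 6 were lower (-0.17), and the 5 sinusoidal ones spanned 0 (0.16). Of mesothelial genes in duct-marker spots only Gpm6a was compared, and it was lower (-1.73). The 7 mesothelial genes together had 56 UMIs there in WT and 12 in C75S. The part of smooth muscle, leukocyte, lymphatic, mesothelial and duct content in the lower levels of the 6 genes was not tested. With 1 section each, the plane of the section and the genotype cannot be told apart.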

How the data were processed

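Spatial transcriptomes of 1 AEG-1-WT and 1 AEG-1-C75S liver section were analysed. Deposited values were raw UMI counts per gene and spot, which the authors obtained with Space Ranger 2.0.1 on mm10 and a mouse probe set (their notes also name Seurat 4.3.0). 0 columns belonged to other samples. Spots with more than 50000 UMIs were left out, as in the study (7 and 4 spots); its limits of 100 to 7000 genes per spot removed no further spot. Of 11 repeated gene symbols the first row was kept. Spot positions were not used here, and Glul was not analysed here.

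UMIs were summed over sets of spots and divided by all UMIs of the set (CPM, per 1e+06). Sums carry exact Poisson intervals, shares and ratios of a pair of sums exact binomial (Clopper-Pearson) ones, at 95%. Genes with at least 50 UMIs over both sides were compared, and a gene was called higher or lower where the interval excluded an equal level. A count of 0 was given a limit of 3 counts. Spots with at least 6 UMIs of the 4 duct markers or of Acta2, Tagln and Myh11 formed the classes; the smooth muscle class, the sum of 6 genes and the ratios of single genes in duct-marker spots without the 5 richest spots were chosen after seeing the data. Likeness was ranked over genes with at least 200 UMIs in each section. Thinning drew 3000 UMIs per spot with seed 1.

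The 10 genes and the 20 lists were chosen with earlier results of these data known. All 10 genes are named, with the genes of the lists that had the most UMIs and the 10 genes of highest likeness; other names are said to be chosen after their values were seen. No test between genotypes was possible. The programs were python 3.11.15, numpy 2.4.6, scipy 1.17.1, pandas 2.3.3, R 4.3.3 and, for TMM factors, edgeR 4.0.16; the interval code was tested on simulated data. Alternatives covered the spot filter, scaling, spot classes, weighting and left-out spots or genes.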

Additional observations from a re-analysis of the deposited data

Results flagged for a closer look

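Dcn stood out because its contrast between duct-marker and other spots pointed in opposite directions in the sections: the log2 ratio was 0.32 in WT and -0.17 in C75S. The difference between these values was not tested, since each genotype had 1 section. In WT the level of Dcn was 333 CPM in the 18 spots with duct and smooth muscle markers and 107 in the 164 with duct markers only.

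The spots over 50000 UMIs that were left out still held 146 UMIs of the 10 genes in WT (7 spots, 3 to 71 in a spot) and 87 in C75S (4 spots, 11 to 27 in a spot), or 393 and 399 CPM.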

How the results depend on the processing

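No paired analysis was possible because there is 1 section per genotype, so there is no replicate to pair or leave out. Of the alternative values of the main results, 40 moved, 1 reversed and 45 did neither. For ratios and shares, moved means outside the interval of the main value. The interval of a median share is the median of the single genes' limits, Lox and Timp1 included. For the counts of lower and higher genes, moved means a change of more than 1.5-fold. The 6 genes lower and the 1 higher in C75S were as many under every setting run for these counts. The cause of these shifts was not tested.

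For the whole section the log2 ratio of C75S over WT of the sum of the 10 genes, -0.35, was -0.31 with totals without the 20 most abundant genes, -0.30 centred on the median gene, -0.30 with TMM factors, -0.25 without the 5 richest spots of each section, -0.90 without Dcn, -0.0936 without spots with smooth muscle markers and -1.0004 for the sum of the 6 genes. In duct-marker spots, -1.22 became -1.11 centred, -1.11 with TMM, -0.91 without the 5 spots, -1.496 without Dcn, -0.91 with duct-marker spots from 3 UMIs, -1.08 with the threshold scaled to spot depth, -1.44 without Spp1, -0.63 without smooth muscle spots and -1.52 for the 6 genes. In other spots, -0.05 became -0.00376 without the 20 genes, -0.49 without Dcn, -0.0944 from 10 UMIs, -0.10 scaled to depth, -0.12 without Spp1, -0.57 for the 6 genes and, reversed, 0.0634 without smooth muscle spots.

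The log2 ratio of duct-marker over other spots in WT, 2.05, was 1.63 without the 5 spots, 2.65 without Dcn, 1.45 from 3 UMIs, 2.35 from 10, 2.15 scaled to depth, 2.64 without Spp1, 1.57 without smooth muscle spots and 2.79 for the 6 genes. In C75S, 0.87 was 0.77, 1.64, 0.57, 1.26, 1.18 and 1.32 under the first 6 of these, in that order, and 1.84 for the 6 genes. The median share of 47.7% in WT was 23.8% with 1% of spots and 32.2% without smooth muscle spots, and the 12.3% in C75S was 3.796% with 1%. With 10% of spots the shares were 52.7% in WT and 24.6% in C75S, and with spots ranked by UMIs 49.2% and 21.3%, a smaller gap. These medians include Lox and Timp1, which had too few UMIs for any comparison at this depth.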
